A study of Mus musculus with 4 samples.

Results

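The salt transport and paracellular genes of the thick ascending limb were described in kidney RNA of Th3 mice, a model of beta-thalassemia, set against control kidney RNA. The set holds 8 genes, Umod, Slc12a1, Kcnj1, Bsnd, Cldn16, Cldn19, Cldn10 and Ptger3, chosen by name among the array's non-control probes. They were measured by 12 of 41174 probes and make up 8 of the 17628 genes tested. In Th3 mice the adult beta-globin genes, beta-major and beta-minor, had been deleted; the second group is labelled only as control. Age, sex, genetic background and whether 1 or both chromosomes carried the deletion are not given in the sources used here. On each of 4 oligonucleotide arrays 1 Th3 and 1 control kidney sample were hybridised together, with Th3 in the red dye Cy5 on arrays 1 and 2 and in the green dye Cy3 on arrays 3 and 4.

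The thick ascending limb takes up sodium, potassium and chloride from the tubule fluid through the cotransporter NKCC2. Potassium returns to the lumen through the channel ROMK, chloride leaves across the basolateral side through chloride channels with their subunit barttin, and the lumen becomes electrically positive. That voltage drives sodium, calcium and magnesium between the cells through pores built from claudins. Uromodulin is the major protein that these cells secrete into urine.

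All 8 genes were tested, each with a value on 4 of 4 arrays, and in all 8 channels 11 of their 12 probes stood well above background. The labelled segment was therefore detected in every sample of the Th3 and control groups. Adult beta-globin (Hbb-bt) in Th3 kidney, the check of the labels, stood at 8.48% of control and was lower on 4 of 4 arrays (limma, adjusted p = 2.7e-06). The share of probes above background ranged over channels from 61.8% to 72.1%, without a saturated spot among those of the 8 genes, and precision is limited by having 4 arrays. The labels do not say that each array held its own animals, so p-values measure only the spread between these samples, which may be technical. RNA came from whole kidney, in which fewer thick limb cells and less RNA per cell cannot be told apart.

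Of the 8 thick limb transport genes, 1 was lower in Th3 kidney, none was higher and 7 were not called at an adjusted p of 0.05 with limma, against 21.5% of all genes tested called in either direction (10.9% higher, 10.6% lower). The calls over all genes split into 1927 higher and 1866 lower, and with median centring in place of loess into 1938 higher and 1144 lower. The median log2 ratio of Th3 over control was -0.07 for the 8 genes and 0.0013 for all genes. In size, disregarding sign, the median was 0.106 for the 8 genes and 0.107 for all genes. The gene that fell was Cldn19, one of the claudins of the calcium and magnesium pore. In the authors' deposited table its called probe had a fold of -1.21 with an adjusted p of 0.0578, and the adjusted p of the other 11 probes lay between 0.198 and 0.919.

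**Figure D1:**
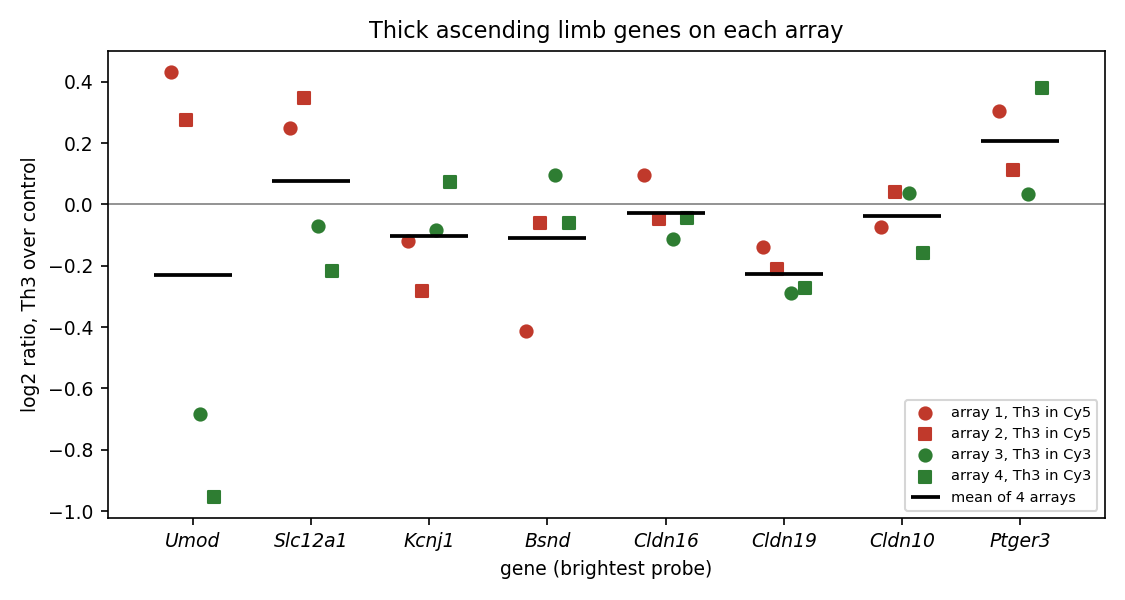
Log2 ratio of Th3 over control (vertical axis) of each gene's brightest probe on each of the 4 arrays (points; red, Th3 in Cy5; green, Th3 in Cy3), with the mean of the 4 arrays as a black line. Cldn19 lies below 0 on all 4 arrays, Ptger3 above 0 on all 4, and Umod lies above 0 on arrays 1 and 2 and below 0 on arrays 3 and 4.

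The 60-base probes of Cldn16, of Cldn19 (the brighter of a pair) and of Cldn10 are shown because the paracellular results rest on them, in 5′ to 3′ direction on the plus strand of mouse build mm8.

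Cldn16, chr16:26389577-26389636: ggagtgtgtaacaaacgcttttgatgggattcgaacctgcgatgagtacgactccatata

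Cldn19, chr4:118755095-118755154: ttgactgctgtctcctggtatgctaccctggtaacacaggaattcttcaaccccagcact

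Cldn10, chr14:118009418-118009477: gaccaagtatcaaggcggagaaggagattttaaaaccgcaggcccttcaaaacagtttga

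The array annotation places the Cldn10 probe in 2 RefSeq transcripts. Cldn10 is known to be made in a proximal tubule and a thick limb form from different first exons, so its value belongs to the sum of the forms that hold this sequence.

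Cldn19 encodes claudin-19, which with claudin-16 forms the cation pore of the thick limb. The brighter probe read log2 levels of 8.85, 8.73, 8.68 and 8.68 in the Th3 samples of arrays 1 to 4, against 8.99, 8.94, 8.97 and 8.96 in the control samples. Every Th3 sample lay below every control sample, a separation that 21.0% of the genes with values on all arrays also had. The log2 ratios were -0.14, -0.21, -0.29 and -0.27, and the mean was -0.23 ± 0.07 (SD, n = 4), or 85.4% of control (limma, adjusted p = 0.0259). The 95% interval of the fit, which here and below is not adjusted for the number of genes tested, ran from 78.4% to 93.1% of control. The dimmer probe of Cldn19, at chr4:118757185-118757244, is annotated to a RefSeq transcript other than that of the brighter probe. It read -0.10, -0.09, 0.07 and 0.04, a mean of -0.02 ± 0.09. The levels of Th3 and control samples overlapped for that probe. The call of Cldn19 ended in each of the 4 fits that left out 1 array (adjusted p from 0.0523 to 0.141), without the dye term (0.0515), with dye orientation as a random block (0.0822), with median centring (0.0922), with scaling between arrays (0.0659), and with the mean of its probes (0.104) or the dimmer probe (0.808).

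Cldn16, the partner claudin whose loss in people causes urinary magnesium wasting, had log2 ratios of 0.10, -0.05, -0.11 and -0.04. Its mean was -0.03 ± 0.09 (SD, n = 4) and the 95% interval ran from 89.5% to 108% of control (limma, adjusted p = 0.764). Whether the ratios of Cldn16 and Cldn19 differ was not tested. Cldn10, whose thick limb form makes a sodium pore, read -0.07, 0.04, 0.04 and -0.16, a mean of -0.04 ± 0.09 with an interval from 88.2% to 108% of control (adjusted p = 0.690). Of the 3 thick limb claudins, only Cldn19 by its brighter probe was called.

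Slc12a1 encodes NKCC2, the target of loop diuretics. Its bright probe, at chr2:124920929-124920988 and annotated to 2 RefSeq transcripts, read log2 levels of 15.84, 15.72, 15.65 and 15.58 in the Th3 samples, against 15.59, 15.38, 15.72 and 15.79 in the control samples. The groups overlapped. The log2 ratios of 0.25, 0.35, -0.07 and -0.22 averaged 0.08 ± 0.26 (SD, n = 4; limma, adjusted p = 0.371), and the 95% interval ran from 96.1% to 116% of control. Within arrays 1 and 2 the mean ratio was 0.30 and within arrays 3 and 4 it was -0.14. The dye term, 0.22 in favour of Cy5, was not called (adjusted p = 0.132).

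A second Slc12a1 probe, at chr2:124886749-124886808, carries a transcript record other than the RefSeq ones and lies at a lower coordinate than the bright probe. It read log2 levels between 6.50 and 6.65 in Th3 samples and between 6.58 and 6.76 in control samples. Its processed scanner signals, 20.3 to 38.5 over all channels, lay near the floor, against 67428 to 86805 for the bright probe. The ratios of this dim probe, -0.20, -0.08, -0.17 and 0.05, averaged -0.10 ± 0.11. The direction of the mean thus differed between the probes, but the dim one is a weak reading of the gene, and neither set of levels separated the groups.

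Kcnj1 encodes ROMK, which recycles potassium so that NKCC2 can go on working. The log2 ratios were -0.12, -0.28, -0.08 and 0.07, a mean of -0.10 ± 0.15 (SD, n = 4; limma, adjusted p = 0.267). The 95% interval ran from 84.3% to 103% of control. Bsnd encodes barttin, the subunit that brings chloride channels to the membrane. Its levels were 8.07, 7.91, 7.94 and 8.02 in Th3 samples, against 8.48, 7.97, 7.85 and 8.08 in control samples. The control sample of array 1 lay above the others, and the groups overlapped. The mean log2 ratio of Bsnd was -0.11 ± 0.21 (adjusted p = 0.333), with -0.41 on array 1 and between -0.06 and 0.09 on the other arrays. Without array 1 the Bsnd mean was -0.02 (adjusted p = 0.936).

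Umod encodes uromodulin, and its ratio changed sign with the dye orientation. The log2 levels were 17.24, 17.11, 16.61 and 16.49 in the Th3 samples of arrays 1 to 4, against 16.81, 16.83, 17.29 and 17.45 in the control samples. On every array the sample in Cy5 was the brighter one, and the Th3 and control levels overlapped. The log2 ratios were 0.43, 0.28, -0.68 and -0.95, with a mean of -0.23 ± 0.69 (SD, n = 4). With the dye term this mean had an adjusted p of 0.0521 in limma and was not called; without the dye term it was 0.564. It passed without array 3 (log2 -0.30, adjusted p = 0.0397), with separate channels (0.00992) and with the mean of each gene's probes (0.0498). Umod has 1 probe, so the last of these settings left its own ratios unchanged and only the values of other genes differed. The unadjusted 95% interval of Umod in the fit with the dye term ran from 76.2% to 95.1% of control, although the gene was not called. The spread of Umod between arrays was exceeded by 0.647% of all genes.

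The dye term of Umod was 0.59 on the log2 scale in favour of Cy5, and was called (limma, adjusted p = 0.0388); it was called for 0.993% of all genes and for no other gene of the 8. The mean Umod ratio was 0.35 within arrays 1 and 2 and -0.82 within arrays 3 and 4. The series' design counts 4 mutants and 4 controls, and if each array held its own pair, a dye effect and a difference between these pairs of kidneys cannot be told apart. The scanner signal of Umod before normalization lay between 222724 and 257760 in Cy5 and between 54132 and 89745 in Cy3. Cy5 was also the brighter before normalization for the bright Slc12a1 probe, at 73578 to 91308 against 30766 to 37334 in Cy3. For Kcnj1 the signals were 61155 to 78902 in Cy5 against 31379 to 41118 in Cy3. The dye terms of Slc12a1 and Kcnj1 after normalization, 0.22 and -0.10, were not called. All 8 Umod readings came from the low-gain pass of the scan, scaled up by the scanner software, as did those of Slc12a1 and Kcnj1. Of 277 genes read that way in all 8 channels, the dye term was called for 18 (6.5%), with Cy5 higher in all 18 of them. Called or not, Cy5 was higher in 72.6% of the 277 genes, with a median dye term of 0.095, and in 55.1% of all genes. The part of the low-gain reading in the Umod result was not tested.

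**Figure D2:**
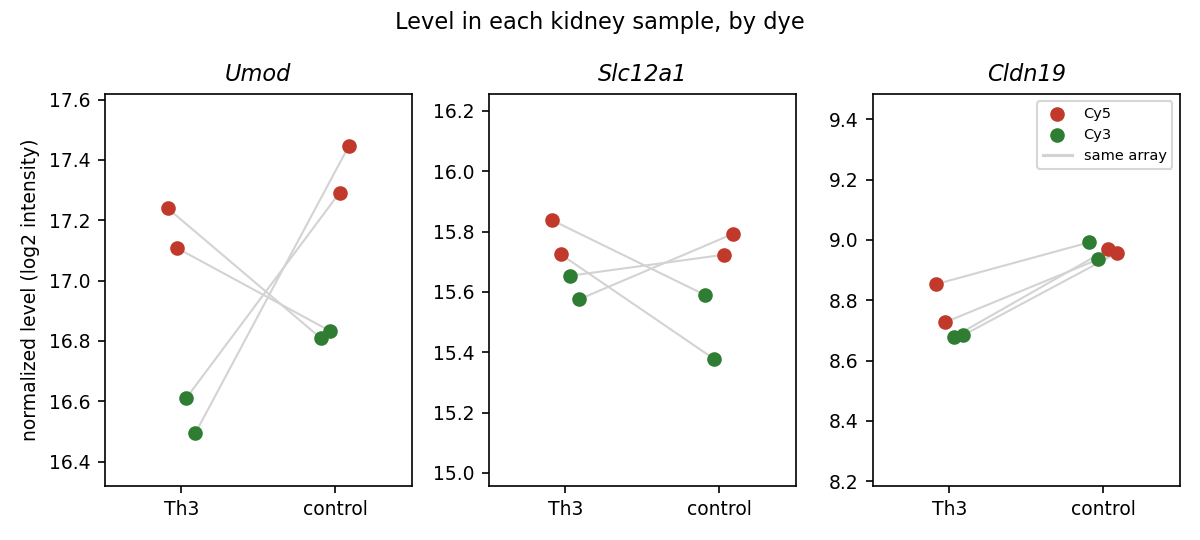
Normalized log2 level (vertical axes, each spanning the same range) of the brightest probe of Umod, Slc12a1 and Cldn19 in the 4 Th3 and 4 control samples; colour gives the dye, and grey lines join samples of the same array. For Umod the Cy5 readings lie above the Cy3 readings in both groups, while for Cldn19 all 4 Th3 samples lie below all 4 control samples.

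Ptger3 encodes EP3, a prostaglandin E2 receptor through which the limb's salt uptake is restrained. The brightest Ptger3 probe, at chr3:157579837-157579896, read log2 levels of 12.32, 11.98, 12.08 and 12.34 in the Th3 samples, against 12.02, 11.86, 12.04 and 11.96 in the control samples. The Th3 samples of arrays 1, 3 and 4 lay above all control samples, that of array 3 by little, and that of array 2 lay within the control range. The log2 ratios of 0.31, 0.11, 0.03 and 0.38 were above 0 on 4 of 4 arrays, and their mean of 0.21 ± 0.16 (SD, n = 4) was not called (limma, adjusted p = 0.0979). The dye term was 0.00076, and the mean was 0.21 within each pair of arrays. One sign on all 4 arrays was also found for 37.1% of the genes with values on all arrays.

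A dimmer Ptger3 probe had ratios of 0.11, 0.05, 0.20 and -0.05, a mean of 0.08 ± 0.10. The third Ptger3 probe, to a transcript record other than the RefSeq ones, was well above background in 3 of 4 Th3 channels and 2 of 4 control channels, and was not kept; its mean ratio was 0.07 ± 0.11. Ptger3 passed with median centring in place of loess (log2 0.28, adjusted p = 0.0396) and without array 3 (log2 0.29, adjusted p = 0.0461).

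**Figure D3:**
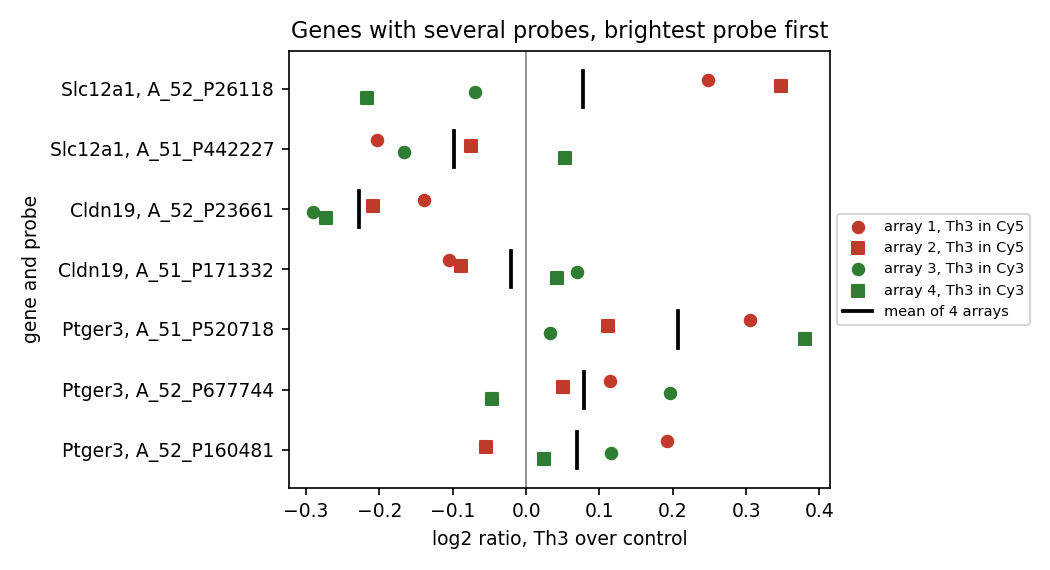
Log2 ratio of Th3 over control (horizontal axis) on each array for every probe of the 3 genes with several probes, brightest probe first within a gene, with the mean as a black line. The means of the 2 Cldn19 probes are -0.23 and -0.02, those of the 2 Slc12a1 probes 0.08 and -0.10, and those of the 3 Ptger3 probes between 0.07 and 0.21.

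With 4 ratios, an exact sign-flip test of 1 gene cannot give a two-sided p under 0.125, so calls rest on the variance that limma shares between genes. The 5 genes whose 8 channel levels went most like those of Slc12a1 were Armc10 (Pearson r = 0.97), Fbxo6 (0.96), Mlkl (0.96), Dnajc10 (0.95) and Cnn1 (0.95). None of these 5 genes was called. Among the thick limb genes, Umod had the highest r with Slc12a1 (0.66) and Kcnj1 the lowest (-0.51). These values describe 8 points that share 4 arrays and their dyes, and were not tested.

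The genes that work with these 8 were followed in 6 lists. Of their 75 tested genes, 12 were higher, 9 were lower and 54 were not called, or 28% called against 21.5% of all genes. The median log2 ratio over the 75 genes was -0.01.

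Among 12 tested salt transport partners, 2 were higher, 2 were lower and 8 were not called. Kcnj16, a subunit of basolateral potassium channels, rose by 0.32 ± 0.22 on the log2 scale (n = 4; limma, adjusted p = 0.0237). Fxyd2, the gamma subunit of the sodium pump, fell by 0.25 ± 0.08 (adjusted p = 0.0232). Slc12a7, a potassium-chloride cotransporter, fell by 0.24 ± 0.13 (adjusted p = 0.0210). Kcnj16 did not pass without array 1 or without array 3, and Fxyd2 and Slc12a7 each failed without array 1, without array 2 and without array 3.

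Among 19 tested genes that control NKCC2 or its trafficking, 2 were higher, 2 were lower and 15 were not called. Pth1r, the parathyroid hormone receptor, which is also abundant in proximal tubule, fell by 0.62 ± 0.11 (n = 4; limma, adjusted p = 0.00165). Its dimmer probe had a log2 ratio of -0.91 ± 0.08, and the call held under all 19 alternatives. Gcgr, the glucagon receptor, fell by 0.26 ± 0.12 (adjusted p = 0.0353), though not without array 1, without array 3, with Agilent's processed signals, with median centring or with the authors' ratios. Vamp2, a vesicle fusion protein, had a mean log2 ratio of 0.26 ± 0.56 (adjusted p = 0.0401) that passed under 9 of the 19 alternatives and not without the dye term; it was -0.22 within arrays 1 and 2 and 0.73 within arrays 3 and 4. The other Vamp2 probes read -0.05 ± 0.09 and -0.09 ± 0.12. Its relative Vamp3 had 0.21 ± 0.26 and passed in none of the 4 fits that left out 1 array. The Vamp3 ratio was -0.01 within arrays 1 and 2 and 0.43 within arrays 3 and 4. Its dimmer probe read 0.06 ± 0.18, and with that probe the call ended. Both Vamp3 probes were dim, at mean log2 levels of 7.22 and 7.05. The kinase genes Stk39 and Oxsr1, which activate NKCC2, had log2 ratios of 0.02 ± 0.16 and 0.03 ± 0.08.

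Other tight junction genes showed 4 higher, 0 lower and 10 not called of 14 tested, with a median log2 ratio of 0.16. Cldn8, a claudin of the distal nephron and collecting duct, rose by 0.44 ± 0.19 (n = 4; limma, adjusted p = 0.0106). Ocln, the junction protein occludin, rose by 0.31 ± 0.05 (adjusted p = 0.0114). Cldn14, the claudin that blocks the thick limb's calcium pore, had a log2 ratio of -0.0024 ± 0.11, and the calcium-sensing receptor gene Casr, which controls it, had 0.11 ± 0.17; neither was called. The calls of Cldn8 and Ocln ended with scaling between arrays.

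In prostaglandin E2 synthesis, transport and reception, 2 of 10 tested genes were higher, 1 was lower and 7 were not called. Abcc4, an exporter of prostaglandins, rose by 0.43 ± 0.35 (n = 4; limma, adjusted p = 0.0485). The importer Slco2a1 rose by 0.22 ± 0.09 (adjusted p = 0.0416). Dimmer probes of Abcc4 and Slco2a1 read 0.03 ± 0.13 and 0.02 ± 0.10. The receptor gene Ptger1 fell by 0.29 ± 0.18 (adjusted p = 0.0347). Abcc4 passed only without array 1 of the 4 fits that left out 1 array, Slco2a1 in none, and Ptger1 did not pass without array 1 or without array 3. The synthase gene Ptgs2 had no probe that passed the filter on dim signal and was not tested.

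Of 16 tested genes of thick limb identity, transcription and uromodulin processing, 1 was higher, 4 were lower and 11 were not called. Egf, the growth factor made by thick limb and distal convoluted tubule, fell by 0.37 ± 0.16 (n = 4; limma, adjusted p = 0.0181) and did not pass without array 3. Tmem72, a kidney membrane protein gene, fell by 0.32 ± 0.22 (adjusted p = 0.0262) and passed only in the fit without array 1 of those that left out 1 array. Esrrb, an orphan nuclear receptor, rose by 0.24 ± 0.08 (adjusted p = 0.0207) by its brighter probe, while the other read 0.05 ± 0.05. The Esrrb call did not hold without array 1 or without array 2. Gp2, which encodes a close relative of uromodulin, had a log2 ratio of -0.16 ± 0.09 and Hpn, the protease that releases uromodulin, had -0.09 ± 0.14; neither was called.

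At the macula densa, the sensor cells at the limb's end, 1 of 4 tested genes was higher, 0 were lower and 3 were not called. Avpr1a, a vasopressin receptor also present in other kidney cells, rose by 0.73 ± 0.35 (n = 4; limma, adjusted p = 0.0110). The Avpr1a call ended with scaling between arrays. Nos1, the neuronal nitric oxide synthase, had 0.14 ± 0.13 and was not called.

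Several of these partner calls rest on the dye term. Without it, and also with dye orientation as a random block, the calls of Kcnj16, Slc12a7, Gcgr, Vamp2, Vamp3, Slco2a1, Abcc4, Ptger1 and Tmem72 ended. With the block alone those of Fxyd2, Egf and Esrrb ended too.

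Other cell types were read from marker lists on the same arrays. The counts below stand beside 10.9% of all genes tested called higher and 10.6% called lower. In proximal tubule, 8 of 11 tested markers were lower and 3 were not called, with a median log2 ratio of -0.37. Gatm, of creatine synthesis, fell by 0.83 ± 0.13 and the organic anion transporter Slc22a6 fell by 0.80 ± 0.11. The summed normalized intensity of the proximal tubule list was 330000 to 378000 in Th3 samples and 393000 to 452000 in control samples, while that of the 8 thick limb genes was 204000 to 279000 in Th3 samples and 225000 to 296000 in control samples. The proximal ranges did not overlap and the thick limb ranges did, but Umod, whose readings split by dye, enters the thick limb sum.

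In distal convoluted and connecting tubule, 4 of 9 tested markers were lower and 5 were not called. The kallikrein Klk1 fell by 0.76 ± 0.20 and Klhl3, which controls salt transport kinases, fell by 0.58 ± 0.10. The summed intensity of that list was 60400 to 85600 in Th3 samples and 92700 to 125000 in control samples. The sum adds unlogged intensities, so bright genes weigh most in it. Klk1, at a mean log2 level of 15.47 and with the largest fall of the list, enters it, and the sum without Klk1 was not taken. In thin limb, 2 of 6 were lower and 4 were not called: Akr1b3, an aldose reductase, had -0.73 ± 0.73, with 0.12 on array 1, and Sptssb, of sphingolipid synthesis, had -0.36 ± 0.72 and passed only without array 1 of the 4 fits that left out 1 array. Their sums were 12500 to 29400 in Th3 samples and 14100 to 33900 in control samples.

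In collecting duct, 2 of 12 markers were higher and 10 were not called; the water channel Aqp3 rose by 0.69 ± 0.15 and the proton pump subunit Atp6v1g3 by 0.27 ± 0.11, the second only without array 2 among the fits that left out 1 array. The collecting duct sums were 71300 to 97300 in Th3 samples and 64300 to 85500 in control samples. Of 6 podocyte markers, 1 was higher and 5 were not called. In endothelium, Flt1, a receptor of vascular endothelial growth factor, rose by 0.73 ± 0.46 and was the only one of 6 endothelial markers called, though not with dye orientation as a random block. The share called was 16.7% in each of the collecting duct, podocyte and endothelium lists, against 21.5% of all genes tested. The podocyte sums were 6010 to 6190 in Th3 samples and 5570 to 6600 in control samples, and the endothelial sums 22100 to 28500 in Th3 samples and 20300 to 23700 in control samples.

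Of 7 tested macrophage and lymphocyte markers, 6 were lower and 1 was not called, with a median of -0.11 within arrays 1 and 2 and -0.86 within arrays 3 and 4. The invariant chain Cd74 fell by 0.94 ± 0.42, and the lysozyme Lyz2 had -0.64 ± 1.11. Their summed intensity was 13500 to 23800 in Th3 samples and 17000 to 41600 in control samples. Of 6 tested genes in the brown fat list, 1 was higher, 2 were lower and 3 were not called. Adipoq, which encodes adiponectin and is not confined to brown fat, had 1.00 ± 1.02, with -0.47 on array 4. It passed under 12 of the 19 alternatives. Cidea, a lipid droplet protein, had -1.11 ± 0.95, and Ucp1, the uncoupling protein, fell by 3.40 ± 0.93. The brown fat sums were 52600 to 74200 in Th3 samples and 34000 to 105000 in control samples. Without the dye term, and also with the random block, the calls of Akr1b3, Sptssb, Lyz2, Cidea and Adipoq ended; with the block alone that of Atp6v1g3 ended too. The part of these cells in the thick limb values was not tested.

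**Figure D4:**
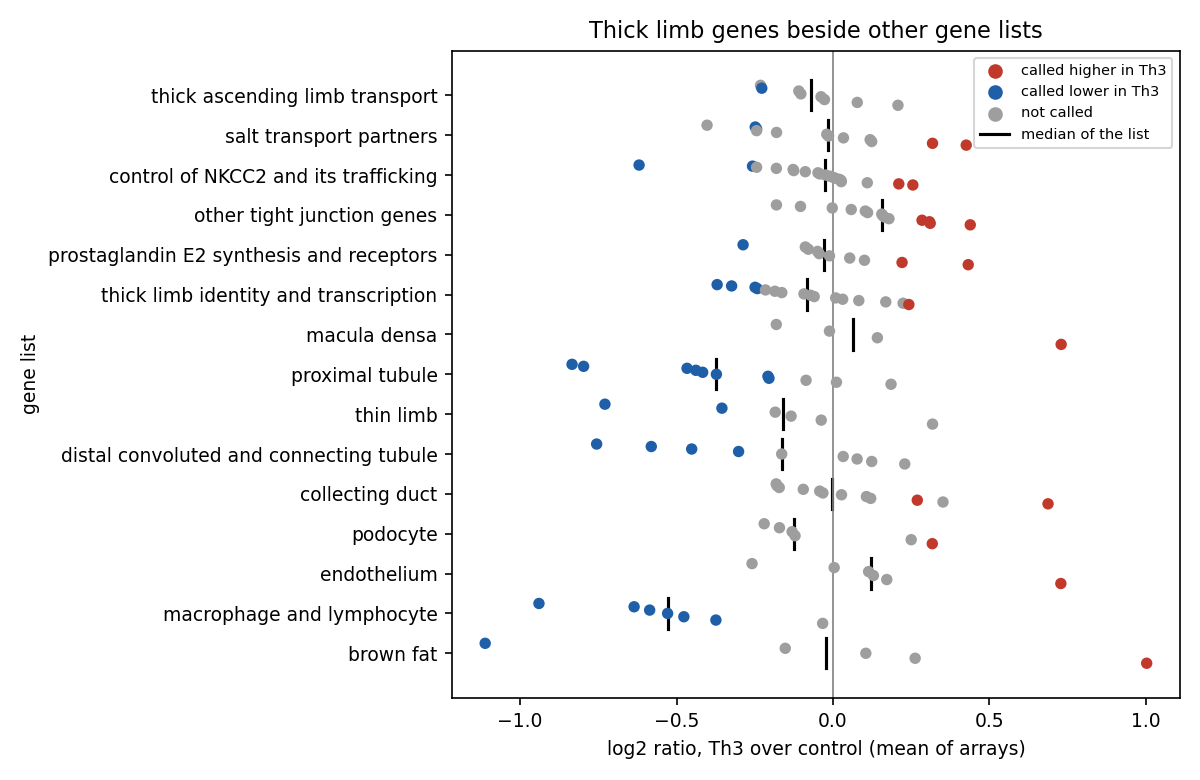
Mean log2 ratio of Th3 over control (horizontal axis) of every tested gene in the thick limb set, in 6 lists of working partners and in 8 lists of other cell types (red, called higher in Th3; blue, called lower; grey, not called; black line, list median); Ucp1, at -3.40, lies outside the plotted range and is left out. The 8 thick limb transport genes lie between -0.23 and 0.21, and the proximal tubule list has a median of -0.37.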

How the data were processed

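Per the file headers, the scanner files hold spot and background intensity values from Agilent Feature Extraction 9.5.3.1 on array design 014868, with processed intensities and a log10 ratio of Cy5 over Cy3, annotated on mm8. Flags are those of the deposited files, a category of other values. The authors deposited log2 ratios per array, a signed fold, stored as a score, and an adjusted p-value; their normalization and test are not given in the sources used here, and they correlated with the turned scanner ratios at 0.73 to 0.81 across probes.

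Mean signals were corrected with normexp (offset 50) and loess (span 0.3, 4 iterations) in limma 3.58.1 under R 4.3.3. A probe was kept where all 4 Th3 or all 4 control channels were well above background (26434 probes), and each gene was read from its brightest such probe. Names came from the RefSeq table of GRCm38.p6, used for names only: 23374 probes matched by accession, 6733 by symbol and 2919 by synonym, and 8148 kept the file's name. Log2 ratios were fitted with lmFit and eBayes on a Th3 and a dye term, with 2 residual and 4.52 prior degrees of freedom. Levels are per channel after loess and Aquantile. Benjamini-Hochberg adjustment ran over 17628 genes, called under 0.05; adjusted p-values in the text are limma's. The fit was tested on simulated data drawn from its own variances and dye terms, which cannot test the calls made in the real data.

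The genes, lists and tests were chosen with earlier results of these data known. Named are the 8 genes, from each list up to 2 called genes with the largest rise and up to 2 with the largest fall, and the 5 genes most like Slc12a1. Some items that this rule names are not reported here. Others were named after their values were seen: Stk39, Oxsr1, Cldn14, Casr, Ptgs2, Gp2, Hpn and Nos1. All 19 alternatives changed 1 choice each: background, normalization, filter, outliers, dye term, channels, weights, variances, probe rule, the authors' ratios, or 1 array left out.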

Additional observations from a re-analysis of the deposited data

Results flagged for a closer look

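For 1 of the 40 named genes tested, 1 array lay far from the other three: Ucp1 of brown fat had a log2 ratio of -2.01 on array 2, the least negative of the 4. Chance alone flags about 1 in 20 groups of 4. None of the 8 thick limb genes had such an array.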

How the results depend on the processing

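Each of the 4 ratios sets a Th3 sample against the control sample on the same array, so the main fit was already paired by array. No further pairing was added. The cause of the changes below was not tested.

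The 1 thick limb gene called lower became 0 with median centring, scaling between arrays, no dye term, dye orientation as a random block and the dimmest probe, and 2 with separate channels; the count called higher became 1 with median centring. Leaving out 1 array gave 0 to 1 called lower and 0 to 1 called higher.

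Over all genes, 1927 called higher and 1866 called lower became 1938 and 1144 with median centring, 1143 and 1097 with scaling, 1102 and 888 without the dye term, 645 and 554 with the random block, and 2982 and 2752 with separate channels. Leaving out 1 array gave 1310 to 1621 higher and 1236 to 1590 lower.

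The working partners, 12 higher and 9 lower, became 7 and 4 with Agilent's processed signals, 3 and 3 with scaling, 5 and 4 without the dye term and 4 and 1 with the random block. Lower calls became 4 with median centring, and higher calls became 6 with the mean of probes, 6 with the dimmest probe and 7 with the authors' ratios. Leaving out 1 array gave 5 to 8 higher and 4 to 8 lower.

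Directions turned for Cldn10 with median centring (log2 0.0419) and without array 4 (leaving out 1 array gave -0.0871 to 0.0104), for Cldn16 without array 2 (-0.0635 to 0.0088), for Slc12a1 with the mean of probes (-0.0102) and the dimmest probe (-0.0980), and for Vamp2 with the dimmest probe (-0.0542). Umod, Kcnj1, Bsnd, Cldn19 and Ptger3 kept their sign under all 19 alternatives, and Cldn19 passed in 9 of them, Umod in 3 and Ptger3 in 2. Several alternatives, such as no dye term and the random block, left the mean log2 ratio as it was, so the sign could not turn there. For Umod the sign still differed between dye orientations, with 0.35 within arrays 1 and 2 and -0.82 within arrays 3 and 4. Dim probes, the second Slc12a1 probe and the third Ptger3 probe among them, are limited by signal over background.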
